A study of Homo sapiens
Mus musculus with 16 samples.

Results

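The genes described here are 39 human transcripts that respond to hypoxia-inducible factor (HIF), read in tumour cells. They were chosen by gene symbol from a list of HIF-responsive genes, all 39 were found among the 23368 genes of the human table, and all 39 are among the 17663 human genes that could be tested. The tumours were xenografts of ScaBER, a long-established cell line from a human squamous carcinoma of the bladder, grown in Hsd:Athymic Nude-Foxn1nu mice, which lack a thymus and so most T cells, and RNA of the whole tumour was sequenced from the 3′ ends of polyadenylated transcripts. Reads were mapped to the human and to the mouse genome apart, so that tumour and host transcripts could be told from each other, and the stated aim was to learn how the 2 drugs act together in the animal. There were 4 libraries in each of 4 groups. Combination tumours had 14 days of nintedanib at 40 mg/kg together with alpelisib (BYL719) at 25 mg/kg. Nintedanib tumours had 14 days of nintedanib at 40 mg/kg, and alpelisib tumours had 14 days of alpelisib at 25 mg/kg. Vehicle tumours had 14 days of the methylcellulose and Tween80 carrier. Nintedanib blocks the kinases of the VEGF, PDGF and FGF receptors, and alpelisib blocks the alpha isoform of PI3K. All groups share the cell line and the host strain, the labels name the source PDX although the cells are a line, and they give neither the age nor the sex of the mice.

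In cells with enough oxygen, the prolyl hydroxylases of the EGLN family mark the HIF alpha subunits HIF1A and EPAS1 for destruction by the VHL ubiquitin ligase. When oxygen is short the alpha subunits escape, pair with ARNT and switch on genes for glucose uptake and glycolysis, pH control, mitochondrial removal, collagen modification and the growth of vessels. Control of HIF acts mainly on the alpha proteins, and EGLN3, EGLN1 and several histone demethylases are themselves targets, which gives the pathway feedback. CA9 and ADM are used as markers of hypoxic regions in many carcinomas.

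Values are the deposited normalized expression values, and differences are log2 differences of value + 1 from a limma model over all 16 libraries. Human reads ran from 8303617 to 18568119 a library and mouse reads from 3606008 to 6850491. All 10 squamous cell markers were present in the human table, with a mean value of 108564 for the keratin KRT14. Of the 14 markers of cell types that human reads should lack, the vessel gene CDH5 averaged 0.549 and the fat gene ADIPOQ 0.243, whereas COL1A1 averaged 54984, CD68 averaged 321 and the muscle gene MYH4 reached 1303. The summed value of these 14 was almost all COL1A1, so it says little of the other markers. It was 45057 to 60187 in combination, 49982 to 90456 in nintedanib, 45364 to 65314 in alpelisib and 46740 to 68921 in vehicle libraries, and its part in the results was not tested. Skeletal muscle transcripts of the mouse (8 genes) summed to 163755 in nintedanib 4 and 95549 in combination 1, against 63.3 to 23595 in the other libraries. These are 2 libraries that stand apart, and the results below that move without them are named. Whether the libraries are of separate animals is not stated in the labels, and the p-values cover the spread between these libraries, which may be technical. In whole-tumour RNA, fewer cells of a type and less RNA per cell cannot be told apart.

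Hypoxia response genes were on average higher in the tumours given nintedanib, with or without alpelisib, and by limma none passed the test across all genes. Averaged over both levels of alpelisib (8 libraries with nintedanib against 8 without), the difference was above 0 for 38 of the 39 genes, with a median of 0.63 on the log2 scale. Over all genes tested the median was 0.034 and 54.2% of genes were above 0. With limma and Benjamini-Hochberg adjustment 0 of the 39 genes were called, where 0% of all genes were, and the lowest adjusted p was 0.116. At an unadjusted p under 0.05, 24 of 39 genes (61.5%) were higher with nintedanib and 0 were lower, against 7.2% and 6.96% of all genes. The 39 genes are not replicates of each other and moved together by library, so such counts, here and below, only describe the list. On recovered reads, edgeR called 0 of the 39 and DESeq2 called 6 (LOX, MXI1, VLDLR, FAM162A, RORA and WSB1) among 153 genes of 14568. Without nintedanib 4 and combination 1, limma called VLDLR alone of the 39, among 74 genes of 17259.

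**Figure D1:**
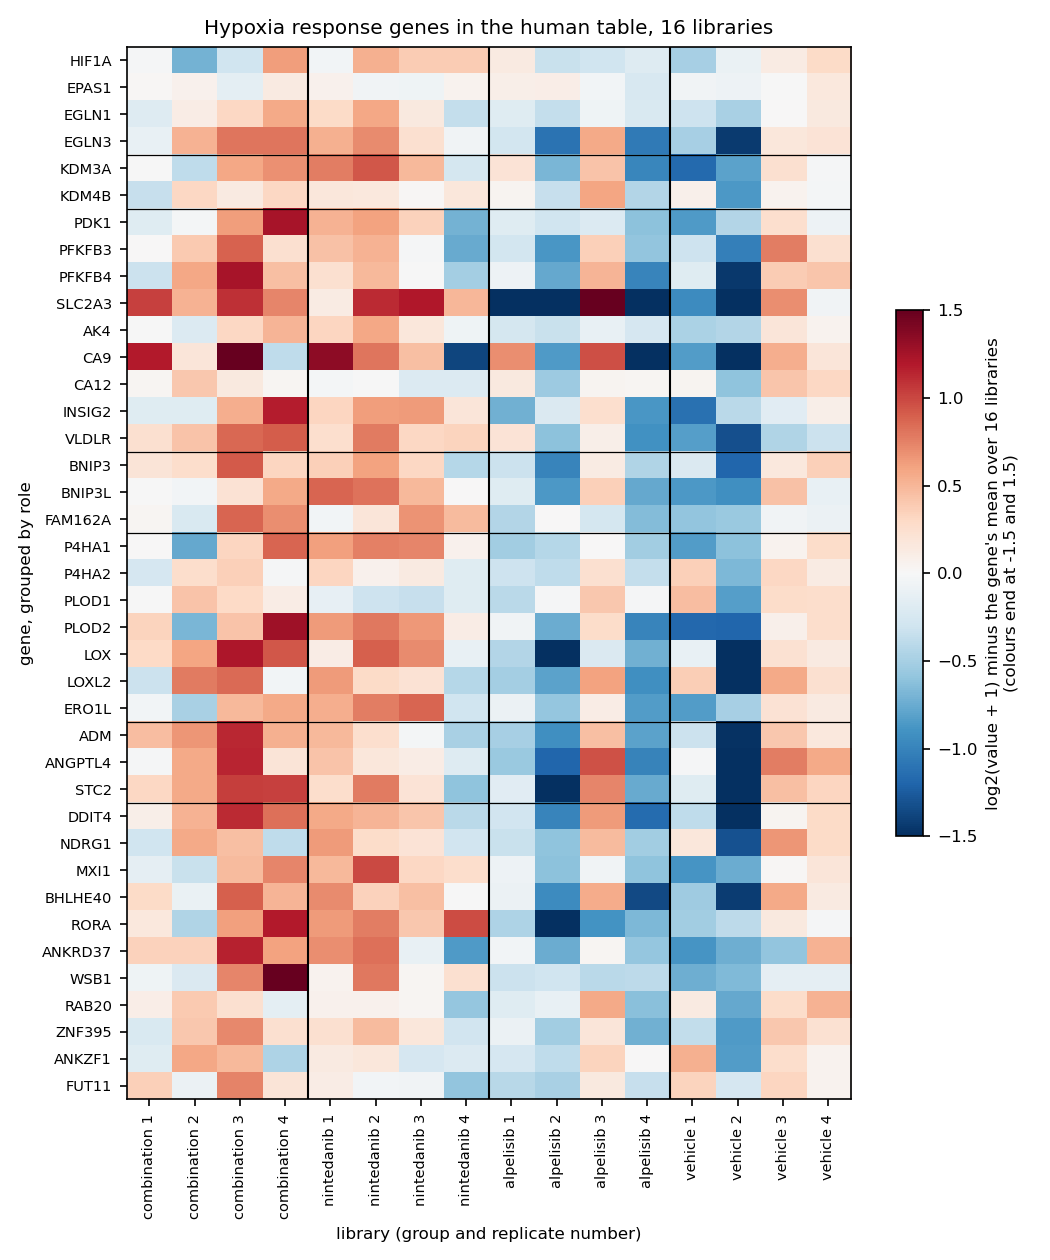
Each row is 1 of the 39 genes, grouped by role, and each column 1 library; colour gives log2(value + 1) minus the gene's mean over the 16 libraries. Combination 3 is the highest of the 16 libraries for 16 genes, and vehicle 2 is the lowest for 23.

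Transcripts of the 4 genes of oxygen sensing and HIF alpha differed by unlike amounts with nintedanib averaged over alpelisib. The log2 difference ran from 0.86 for the prolyl hydroxylase EGLN3 to 0.02 for the alpha subunit EPAS1. EGLN3 stood at 1351, 2097, 2544 and 2545 in combination 1 to 4 and at 2109, 2391, 1732 and 1410 in nintedanib 1 to 4. It stood at 1205, 675, 2160 and 697 in alpelisib 1 to 4 and at 1033, 539.7, 1649 and 1688 in vehicle 1 to 4. EGLN3 differed by 0.86 with nintedanib averaged over alpelisib (SE 0.24, limma adjusted p = 0.177). Every library with nintedanib exceeded alpelisib 1, 2 and 4 and vehicle 1 and 2, and alpelisib 3, vehicle 3 and vehicle 4 lay in the same range as the nintedanib libraries, so the groups overlapped. EGLN1 stood at 592, 731, 842 and 1004 in combination 1 to 4 and at 828, 1010, 749 and 528 in nintedanib 1 to 4. It stood at 596, 526, 646 and 575 in alpelisib 1 to 4 and at 545, 484, 678 and 751 in vehicle 1 to 4. EGLN1 is the hydroxylase that sets HIF alpha levels in most cells. The difference of EGLN1 with nintedanib averaged over alpelisib was 0.37 (SE 0.14, limma adjusted p = 0.259). Nintedanib 2 and combination 4 were highest, and nintedanib 4 lay among the vehicle libraries.

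HIF1A, the widely expressed alpha subunit, showed no common order of the groups. HIF1A stood at 3947, 2451, 3263 and 6187 in combination 1 to 4 and at 3873, 5810, 5220 and 5200 in nintedanib 1 to 4. It stood at 4389, 3179, 3259 and 3499 in alpelisib 1 to 4 and at 2827, 3730, 4371 and 4895 in vehicle 1 to 4. For HIF1A the nintedanib difference averaged over alpelisib was 0.22 (SE 0.16, limma adjusted p = 0.558). Its lowest and its highest value were both in the combination group, combination 2 and combination 4. In nintedanib libraries 3 of 4 exceeded every vehicle library. Combination minus nintedanib was -0.41 (SE 0.23, limma adjusted p = 0.622). Single libraries moved both values, the average to 0.095 without combination 4 and 0.14 without vehicle 1, and combination minus nintedanib to -0.21 without combination 2 and -0.65 without combination 4. EPAS1, the alpha subunit best known from endothelium and kidney cancer, varied little. EPAS1 stood at 1249, 1294, 1117 and 1350 in combination 1 to 4 and at 1288, 1191, 1175 and 1274 in nintedanib 1 to 4. It stood at 1307, 1316, 1200 and 1047 in alpelisib 1 to 4 and at 1190, 1171, 1225 and 1376 in vehicle 1 to 4. Averaged over alpelisib, the nintedanib difference of EPAS1 was 0.02 (SE 0.10, limma adjusted p = 0.954). The 95% interval of that difference ran from -0.18 to 0.22, all groups overlapped, and with libraries scaled to their human and mouse reads together the difference was -0.03.

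KDM3A and KDM4B, demethylases that remove methyl groups from histone H3 lysine and need oxygen to work, differed by 0.70 and 0.23 on the log2 scale with nintedanib (averaged over alpelisib; SE 0.24 and 0.16). KDM3A ranged from 262 to 552 in combination, 284 to 653 in nintedanib, 173 to 460.0 in alpelisib and 152 to 406 in vehicle libraries. KDM4B ranged from 574 to 909 in combination, 737 to 823 in nintedanib, 538 to 1104 in alpelisib and 400.0 to 767 in vehicle libraries.

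Genes of metabolism, pH control and lipid uptake were above 0 for 9 of 9 with nintedanib averaged over alpelisib (54.2% of all genes). Of these 5 were at an unadjusted p under 0.05 (7.2% of all genes were higher). The groups by role were made after values were seen, so their counts only describe parts of the list. VLDLR, a receptor that takes up triglyceride-rich lipoproteins, had the lowest adjusted p of the 39 against vehicle. VLDLR stood at 100.5, 115, 156 and 161 in combination 1 to 4 and at 102, 147, 106 and 108 in nintedanib 1 to 4. It stood at 98.0, 55.4, 90.7 and 45.0 in alpelisib 1 to 4 and at 47.6, 33.5, 62.0 and 67.8 in vehicle 1 to 4. Every library with nintedanib (100.5 or more) exceeded every library without it (98.0 or less), and VLDLR was the only one of the 39 genes to do so, where 0.0226% of all genes did in that direction and 0.0453% in the other. VLDLR differed by 1.03 with nintedanib averaged over alpelisib (SE 0.21, limma adjusted p = 0.116). Against vehicle, nintedanib alone differed by 1.15 (SE 0.30, limma adjusted p = 0.256) and the combination by 1.34 (SE 0.30, limma adjusted p = 0.396). Alpelisib 1 and alpelisib 3 lay above every vehicle library, and alpelisib minus vehicle was 0.42 (SE 0.30, limma adjusted p = 1), which was 0.25 without alpelisib 1 and 0.23 without vehicle 2. Mouse reads made up 46% of the reads of VLDLR in both tables, and their part in the human value was not tested.

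CA9 and CA12 are membrane carbonic anhydrases that act in pH control, and CA9 is the standard tissue marker of hypoxia. CA9 stood at 1196, 594, 1537 and 401 in combination 1 to 4 and at 1329, 918, 718 and 202 in nintedanib 1 to 4. It stood at 851, 289, 1029 and 80.6 in alpelisib 1 to 4 and at 293, 152, 767 and 594 in vehicle 1 to 4. The difference of CA9 with nintedanib averaged over alpelisib was 0.94 (SE 0.46, limma adjusted p = 0.364). The CA9 difference was 0.57 without alpelisib 4 and 1.22 without nintedanib 4. All groups overlapped for CA9, and nintedanib 4 and alpelisib 4 were the lowest of their groups. CA12 stood at 2629, 3395, 2849 and 2613 in combination 1 to 4 and at 2511, 2563, 2233 and 2233 in nintedanib 1 to 4. It stood at 2840, 1768, 2635 and 2621 in alpelisib 1 to 4 and at 2654, 1695, 3420 and 3191 in vehicle 1 to 4. For CA12 the nintedanib difference averaged over alpelisib was 0.04 (SE 0.14, limma adjusted p = 0.926). Combination libraries all exceeded nintedanib libraries for CA12, and the other pairs of groups overlapped. With libraries scaled to human and mouse reads together, the nintedanib difference of CA12 was -0.00966.

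SLC2A3, the high-affinity glucose transporter, had the largest difference of the 39 with nintedanib averaged over alpelisib. SLC2A3 stood at 51.3, 35.8, 54.1 and 41.8 in combination 1 to 4 and at 27.0, 54.9, 58.2 and 35.3 in nintedanib 1 to 4. It stood at 4.56, 6.27, 77.1 and 6.28 in alpelisib 1 to 4 and at 12.4, 6.70, 40.8 and 23.7 in vehicle 1 to 4. Averaged over alpelisib, the nintedanib difference of SLC2A3 was 1.58 (SE 0.45, limma adjusted p = 0.186). In the alpelisib group 3 libraries were at 6.28 or below and alpelisib 3 was at 77.1. Mouse reads made up 61.6% of the reads given to this gene in both tables, and their part in the human value was not tested. PDK1, the kinase that closes the entry of pyruvate into mitochondria, differed by 0.60 (SE 0.22). PFKFB3 and PFKFB4, which make the activator of phosphofructokinase, differed by 0.43 (SE 0.23) and 0.54 (SE 0.27). AK4, a mitochondrial adenylate kinase, differed by 0.41 (SE 0.13) and INSIG2, which holds back sterol synthesis, by 0.79 (SE 0.23), with limma adjusted p of 0.21 and 0.184.

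BNIP3, BNIP3L and FAM162A, which act at mitochondria in mitophagy and cell death, lay close together. With nintedanib averaged over alpelisib 3 of 3 were above 0 (54.2% of all genes). They differed by 0.63, 0.73 and 0.66 on the log2 scale, each at an unadjusted p under 0.05 (7.2% of all genes were higher). FAM162A stood at 2583, 2159, 4633 and 4113 in combination 1 to 4 and at 2474, 2872, 4032 and 3514 in nintedanib 1 to 4. It stood at 1876, 2544, 2113 and 1615 in alpelisib 1 to 4 and at 1681, 1724, 2436 and 2383 in vehicle 1 to 4. FAM162A differed by 0.66 with nintedanib averaged over alpelisib (SE 0.16, limma adjusted p = 0.164). All 4 nintedanib libraries exceeded all 4 vehicle libraries, while combination 2 lay among the alpelisib and vehicle libraries. BNIP3L stood at 1278, 1239, 1483 and 1898 in combination 1 to 4 and at 2339, 2249, 1792 and 1286 in nintedanib 1 to 4. It stood at 1132, 702, 1639 and 751 in alpelisib 1 to 4 and at 703, 678, 1732 and 1187 in vehicle 1 to 4. The difference of BNIP3L with nintedanib averaged over alpelisib was 0.73 (SE 0.20, limma adjusted p = 0.177). Vehicle 3 reached the nintedanib range for BNIP3L, and 3 of 4 nintedanib libraries exceeded it. BNIP3 ranged from 5037 to 8338 in combination, 3280 to 6714 in nintedanib, 2228 to 4820 in alpelisib and 1930 to 5640 in vehicle libraries. For BNIP3 the combination did not overlap with alpelisib, and nintedanib overlapped with vehicle.

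Among the 7 genes of collagen modification 6 were above 0 with nintedanib averaged over alpelisib (54.2% of all genes). Of these 4 were at an unadjusted p under 0.05 (7.2% of all genes were higher). LOX is a lysyl oxidase that cross-links collagen. LOX stood at 174, 212, 328 and 269 in combination 1 to 4 and at 152, 262, 230.1 and 129.6 in nintedanib 1 to 4. It stood at 103, 41.8, 120.5 and 84.8 in alpelisib 1 to 4 and at 129.6, 40.2, 166 and 155 in vehicle 1 to 4. Combination libraries all exceeded both the alpelisib and the vehicle libraries, and nintedanib libraries overlapped with vehicle. For LOX the nintedanib difference averaged over alpelisib was 1.16 (SE 0.27, limma adjusted p = 0.153). Mouse reads made up 52.5% of the reads of LOX in both tables, and their part was not tested.

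P4HA1 stood at 728, 427, 908 and 1334 in combination 1 to 4 and at 1114, 1225, 1212 and 761 in nintedanib 1 to 4. It stood at 505, 540.1, 730.0 and 507 in alpelisib 1 to 4 and at 405, 475, 757 and 877 in vehicle 1 to 4. P4HA1 is a catalytic subunit of collagen prolyl hydroxylase. Averaged over alpelisib, the nintedanib difference of P4HA1 was 0.65 (SE 0.20, limma adjusted p = 0.197). Nintedanib minus vehicle was 0.82 (SE 0.28, limma adjusted p = 0.302), whereas the combination spanned the whole range, with combination 2 near the lowest of all and combination 4 the highest. P4HA2 encodes another catalytic subunit of the same enzyme. P4HA2 stood at 651, 930.5, 998 and 766 in combination 1 to 4 and at 974, 813, 849.6 and 685 in nintedanib 1 to 4. It stood at 624, 596, 919 and 607 in alpelisib 1 to 4 and at 996, 486, 960.2 and 844 in vehicle 1 to 4. P4HA2 differed by 0.17 with nintedanib averaged over alpelisib (SE 0.15, limma adjusted p = 0.621). For P4HA2 all groups overlapped. PLOD1 and PLOD2 are lysyl hydroxylases that prepare collagen for cross-linking. PLOD1 stood at 1170, 1573, 1438 and 1270 in combination 1 to 4 and at 1079, 942, 922 and 1033 in nintedanib 1 to 4. It stood at 887, 1154, 1556 and 1156 in alpelisib 1 to 4 and at 1619, 660.4, 1416 and 1409 in vehicle 1 to 4. The difference of PLOD1 with nintedanib averaged over alpelisib was -0.03 (SE 0.16, limma adjusted p = 0.944). For PLOD1, the only gene below 0 in this average, combination libraries all exceeded nintedanib libraries, a difference of 0.45 (SE 0.22, limma adjusted p = 0.552). PLOD2 differed by 0.89 (SE 0.26), with 225 to 880.3 in combination, 394 to 629 in nintedanib, 183 to 441 in alpelisib and 159 to 435 in vehicle libraries. LOXL2, a second lysyl oxidase, differed by 0.50 (SE 0.27), with 79.1% of the reads of both tables in mouse. ERO1L, which oxidises the enzyme that forms disulfide bonds in secreted proteins, differed by 0.60 (SE 0.20).

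Secreted factors were above 0 for 3 of 3 with nintedanib averaged over alpelisib (54.2% of all genes). ADM encodes adrenomedullin, a peptide that widens vessels. ADM stood at 3688, 4208, 5836 and 3872 in combination 1 to 4 and at 3745, 3187, 2623 and 1898 in nintedanib 1 to 4. It stood at 1885, 1412, 3648 and 1524 in alpelisib 1 to 4 and at 2134, 952, 3524 and 2983 in vehicle 1 to 4. For ADM the nintedanib difference averaged over alpelisib was 0.76 (SE 0.23, limma adjusted p = 0.197). Every combination library exceeded every alpelisib and every vehicle library, and nintedanib libraries overlapped with vehicle. Combination minus alpelisib was 1.14 (SE 0.33, limma adjusted p = 0.487), and combination minus vehicle was 1.01 (SE 0.33, limma adjusted p = 0.505), which without vehicle 2 was 0.62. ANGPTL4, an inhibitor of lipoprotein lipase, differed by 0.60 (SE 0.32), and STC2, a secreted glycoprotein, by 0.90 (SE 0.34). ANGPTL4 ranged from 1168 to 2601 in combination, 1030 to 1593 in nintedanib, 515 to 2297 in alpelisib and 308 to 2014 in vehicle libraries, so that no comparison separated the groups.

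The remaining 11 genes include transcription factors, brakes on growth and genes of varied function. All 11 were above 0 with nintedanib averaged over alpelisib (54.2% of all genes). Of these 7 were at an unadjusted p under 0.05 (7.2% of all genes were higher). RORA, a nuclear receptor of circadian and lipid control, had the smallest p of the 39. RORA stood at 131, 86.0, 181 and 270.1 in combination 1 to 4 and at 184, 200.5, 157 and 232 in nintedanib 1 to 4. It stood at 85.1, 40.7, 62.7 and 73.3 in alpelisib 1 to 4 and at 81.9, 89.4, 131 and 116 in vehicle 1 to 4. Averaged over alpelisib, the nintedanib difference of RORA was 1.08 (SE 0.22, limma adjusted p = 0.116). Nintedanib libraries all exceeded vehicle libraries and combination libraries all exceeded alpelisib libraries, while alpelisib libraries were low, 3 of 4 below every vehicle library. Alpelisib minus vehicle was -0.69 (SE 0.31, limma adjusted p = 1), the only one of the 39 genes at an unadjusted p under 0.05 in that comparison, where 0.793% of all genes were lower.

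MXI1 is a MYC antagonist. MXI1 stood at 2293, 1992, 3479 and 4185 in combination 1 to 4 and at 3526, 4990, 3120 and 3011 in nintedanib 1 to 4. It stood at 2376, 1638, 2415 and 1655 in alpelisib 1 to 4 and at 1355, 1503, 2537 and 2856 in vehicle 1 to 4. MXI1 differed by 0.70 with nintedanib averaged over alpelisib (SE 0.18, limma adjusted p = 0.171). Nintedanib libraries all exceeded vehicle libraries, and the combination overlapped with alpelisib and vehicle. WSB1 is the substrate receptor of a ubiquitin ligase. WSB1 stood at 676, 608, 1180 and 2017 in combination 1 to 4 and at 738, 1231, 724 and 838 in nintedanib 1 to 4. It stood at 567, 579, 536 and 540.4 in alpelisib 1 to 4 and at 425, 449, 649 and 648 in vehicle 1 to 4. The difference of WSB1 with nintedanib averaged over alpelisib was 0.77 (SE 0.19, limma adjusted p = 0.171). Nintedanib libraries lay above vehicle and combination libraries above alpelisib, without overlap, and combination 4 was far above the others. Without combination 4, combination minus vehicle was 0.56 for WSB1, against 0.90 with it.

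ANKRD37, an ankyrin-repeat protein, had every combination library above every alpelisib library. ANKRD37 stood at 279, 279, 488 and 333 in combination 1 to 4 and at 356, 388, 202 and 121 in nintedanib 1 to 4. It stood at 213, 131, 224 and 146 in alpelisib 1 to 4 and at 118, 131, 144 and 314 in vehicle 1 to 4. For ANKRD37 the nintedanib difference averaged over alpelisib was 0.76 (SE 0.24, limma adjusted p = 0.2). Vehicle 4 was the one vehicle library in the range of the combination. FUT11 stood at 186, 137, 245 and 166 in combination 1 to 4 and at 157, 142, 140.3 and 95.9 in nintedanib 1 to 4. It stood at 109, 103, 161 and 114 in alpelisib 1 to 4 and at 184, 122, 182 and 150.4 in vehicle 1 to 4. FUT11 belongs to the fucosyltransferase family. Averaged over alpelisib, the nintedanib difference of FUT11 was 0.16 (SE 0.17, limma adjusted p = 0.695). It had the smallest p of the 39 for the departure from additive effects, 0.83 (SE 0.34, limma adjusted p = 0.781), with nintedanib alone and alpelisib alone both below vehicle on average and the combination above it. DDIT4, which brakes mTOR signalling, differed by 0.91 (SE 0.27), BHLHE40, a repressor, by 0.77 (SE 0.26) and ZNF395, a DNA-binding protein, by 0.43 (SE 0.18), all averaged over alpelisib. NDRG1, a stress gene strongly induced by hypoxia, differed by 0.29 (SE 0.27), with 44554 to 85977 in combination, 47490 to 89845 in nintedanib, 38066 to 80147 in alpelisib and 23396 to 91595 in vehicle libraries. RAB20, a small GTPase, and ANKZF1, a factor of ribosome quality control, differed by 0.04 and 0.07 (SE 0.20 and 0.18).

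**Figure D2:**
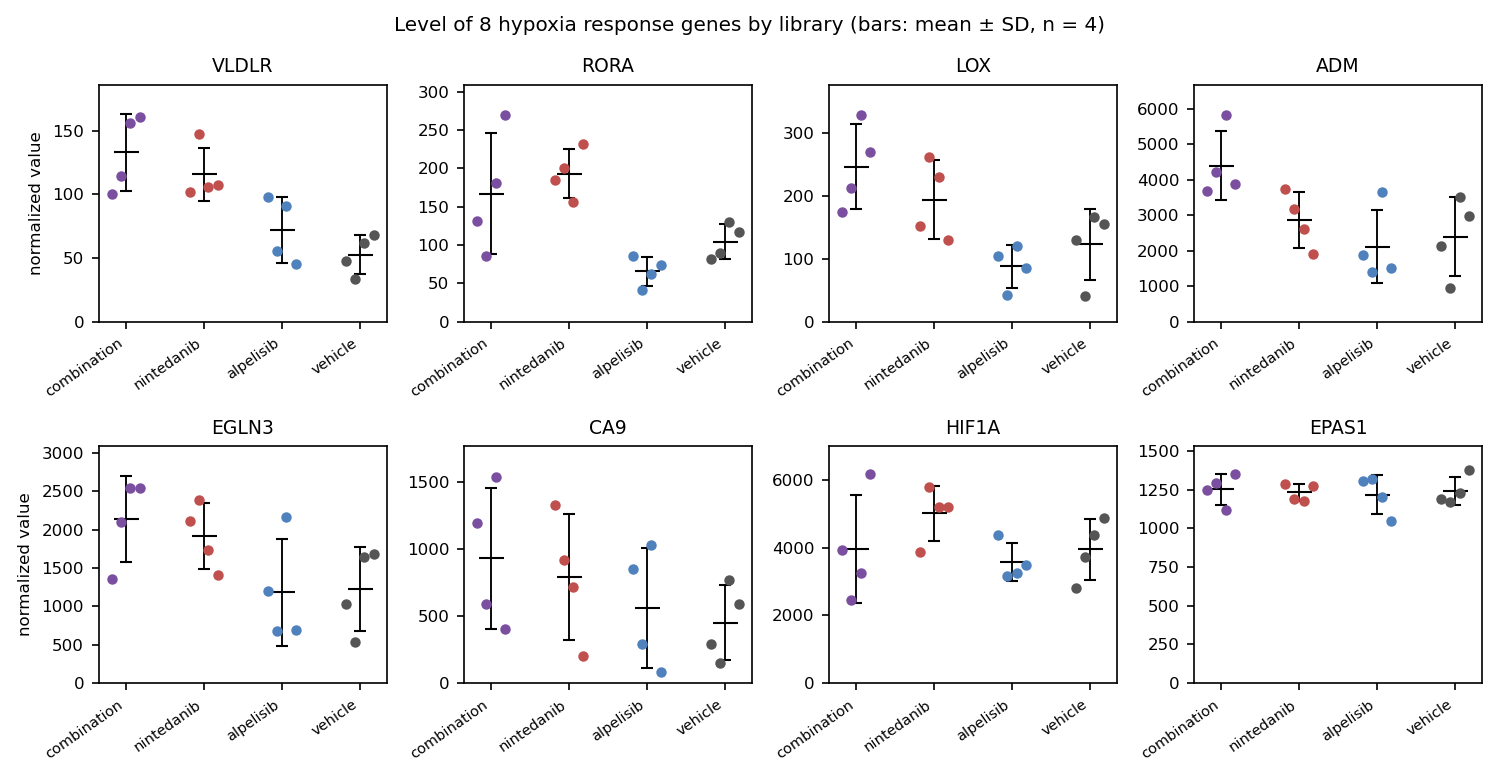
The normalized value of 8 genes is plotted by group, with 1 point per library and bars for the mean ± SD (n = 4). VLDLR separates the libraries with nintedanib from those without, ADM and LOX separate the combination from alpelisib and vehicle, and EPAS1 lies between 1047 and 1376 in all 16 libraries.

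Nintedanib alone against vehicle gave a median of 0.47 over the 39 genes (all genes 0.021), with 33 of 39 above 0 (51.7% of all genes). By limma 0 of 39 were called (0% of all genes), by edgeR 0 and by DESeq2 1 (VLDLR, among 79 genes of 13541). At an unadjusted p under 0.05, 13 genes (33.3%) were higher, against 6.88% of all genes, and 0 were lower (4.7%). They were AK4, BNIP3L, EGLN3, ERO1L, FAM162A, INSIG2, KDM3A, MXI1, P4HA1, PLOD2, RORA, VLDLR and WSB1. Groups did not overlap for 6 of the 39 genes (FAM162A, INSIG2, MXI1, RORA, VLDLR and WSB1, all higher), against 4.86% of all genes in that direction, and for 0 in the other (3.22%). The genes with the smallest p were VLDLR at 1.15 (SE 0.30, limma adjusted p = 0.256), MXI1 at 0.87 (SE 0.26, limma adjusted p = 0.279), BNIP3L at 0.91 (SE 0.28, limma adjusted p = 0.291) and P4HA1 at 0.82 (SE 0.28, limma adjusted p = 0.302). Without nintedanib 4 the median was 0.65 and 19 genes were at an unadjusted p under 0.05; without vehicle 1 the count was 7, and without vehicle 2 the median was 0.31.

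The combination against alpelisib, the same drug step taken in the presence of alpelisib and with no library in common with the one above, gave a median of 0.71 (all genes 0.012) and 39 of 39 above 0 (51.4% of all genes). Limma called 0 of 39 genes (0.00566% of all genes), edgeR 0 and DESeq2 2 (LOX and RORA, among 19 genes of 16622). At an unadjusted p under 0.05, 20 genes (51.3%) were higher, against 4.71% of all genes, and 0 were lower (3.74%). Groups did not overlap for 8 genes, ADM, ANKRD37, BNIP3, LOX, PDK1, RORA, VLDLR and WSB1, all higher, against 1.6% of all genes, and for 0 lower (1.49%). The genes with the smallest p were RORA at 1.26 (SE 0.31, limma adjusted p = 0.409), LOX at 1.54 (SE 0.39, limma adjusted p = 0.409), ADM at 1.14 (SE 0.33, limma adjusted p = 0.487) and WSB1 at 0.84 (SE 0.27, limma adjusted p = 0.537). Without combination 4, WSB1 was at 0.50 in this comparison. The count at an unadjusted p under 0.05 was 12 without combination 3 and 28 without alpelisib 3.

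Set side by side, the nintedanib difference was above 0 both with and without alpelisib for 33 genes and below 0 in both for 0. The share of all genes was not computed for this tally, which only describes the list. The departure from additive effects (combination minus nintedanib minus alpelisib plus vehicle) had a median of 0.23 (all genes -0.0037). It was above 0 for 28 of 39 (49.7% of all genes). By definition these are the genes whose nintedanib difference was larger with alpelisib present. By limma 0 of 39 were called (0% of all genes), by edgeR 0 and by DESeq2 0, and at an unadjusted p under 0.05 FUT11 alone was higher, 2.56% against 2.51% of all genes, and 0 were lower (3.72%). The next smallest p were those of ADM at 0.77 (SE 0.46, limma adjusted p = 0.839), PLOD1 at 0.50 (SE 0.31, limma adjusted p = 0.852) and CA12 at 0.39 (SE 0.28, limma adjusted p = 0.882). Without vehicle 2 the count was 9, the median 0.50, and the terms of ADM, PLOD1 and CA12 were 1.16, 0.79 and 0.60; CA12 was at 0.24 without alpelisib 2. The median was 0.38 without alpelisib 3, and it lay between 0.090 and 0.13 without nintedanib 4, alpelisib 4, combination 3, vehicle 3 or vehicle 4. The standard error of this term had a median of 0.42 over the 39 genes, against 0.30 for nintedanib minus vehicle.

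**Figure D3:**
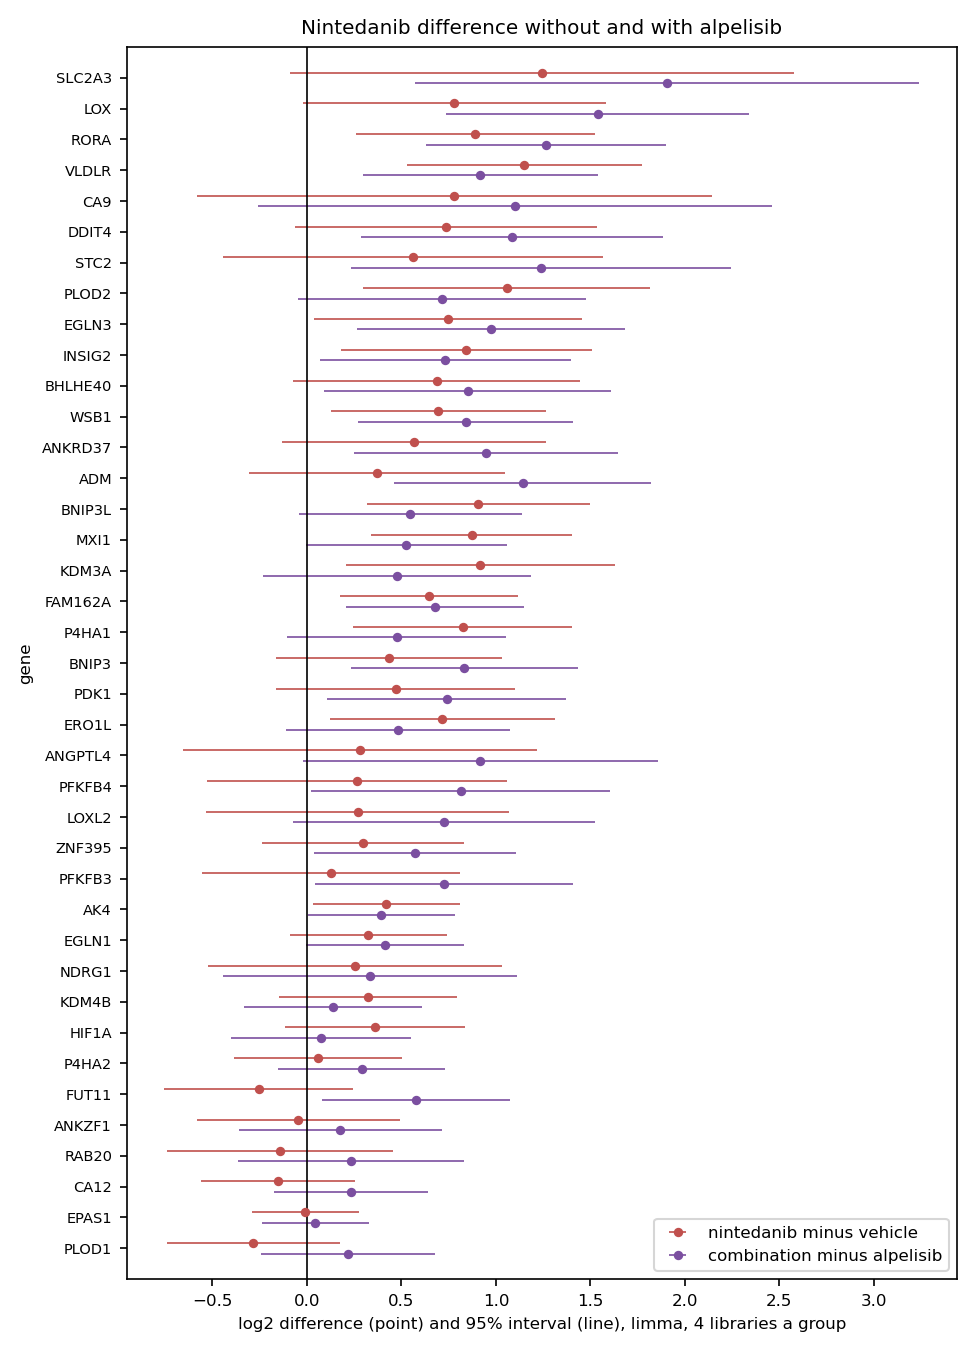
Log2 differences of nintedanib minus vehicle and of combination minus alpelisib are drawn for the 39 genes with 95% intervals (limma, 4 libraries a group), ordered by their average. Intervals lie above 0 for 13 genes without alpelisib and for 20 with it.

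Alpelisib alone against vehicle gave a median of -0.085 (all genes 0.0055), with 10 of 39 above 0 (51% of all genes). Limma called 0 of 39 genes (0% of all genes), edgeR 0 and DESeq2 0. At an unadjusted p under 0.05, 0 were higher (1.69% of all genes) and RORA was lower. After RORA the smallest p were those of FUT11 at -0.39 (SE 0.24, limma adjusted p = 1), VLDLR at 0.42 (SE 0.30, limma adjusted p = 1) and P4HA2 at -0.23 (SE 0.21, limma adjusted p = 1). No gene had groups without overlap, against 1.23% of all genes higher and 0.685% lower. Leaving out 1 library could turn the direction of the median, at 0.044 without vehicle 3, 0.021 without vehicle 4 and 0.0074 without alpelisib 4, against -0.36 without vehicle 2 and -0.26 without alpelisib 3. P4HA2 ran from -0.46 without vehicle 2 to -0.12 without vehicle 1, with -0.38 without alpelisib 3 and -0.14 without vehicle 3. Averaged over nintedanib, the alpelisib difference had a median of 0.0039 (all genes 0.0071) with 20 of 39 above 0, and the smallest p were those of RORA at -0.51 (SE 0.22, limma adjusted p = 1), HIF1A at -0.27 (SE 0.16, limma adjusted p = 1), VLDLR at 0.31 (SE 0.21, limma adjusted p = 1) and P4HA1 at -0.26 (SE 0.20, limma adjusted p = 1). With 1 library left out that median ran from -0.10 without vehicle 2 to 0.079 without vehicle 3. Without combination 2, HIF1A was at -0.17 and P4HA1 at -0.11 in the same average, and P4HA1 was at -0.17 without vehicle 4. In that average limma, edgeR and DESeq2 each called 0 of 39 (0% of all genes by limma), and at an unadjusted p under 0.05 0 were higher (2.21% of all genes) and RORA was lower (1.93%).

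Both drugs against vehicle gave a median of 0.57 (all genes 0.031), with 38 of 39 above 0 (53.5% of all genes), HIF1A being the exception at -0.05. By limma 0 of 39 were called (0% of all genes), by edgeR 0 and by DESeq2 1 (VLDLR, among 13 genes of 12517). At an unadjusted p under 0.05, 15 genes (38.5%) were higher, against 4.47% of all genes, and 0 were lower (3.69%). The genes with the smallest p were VLDLR at 1.34 (SE 0.30, limma adjusted p = 0.396), WSB1 at 0.90 (SE 0.27, limma adjusted p = 0.505), ADM at 1.01 (SE 0.33, limma adjusted p = 0.505) and ANKRD37 at 1.04 (SE 0.34, limma adjusted p = 0.505). Groups did not overlap for ADM, LOX and VLDLR, all higher, against 1.79% of all genes, and for 0 lower (1.08%). Without vehicle 2 the median was 0.33 and the count 6, and without vehicle 3 they were 0.75 and 22. Nintedanib minus vehicle and combination minus vehicle share the vehicle libraries, so their values are not independent.

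Adding alpelisib to nintedanib gave a median of 0.14 (all genes 0.0079), with 27 of 39 above 0 (50.8% of all genes). That median was 0.0011 without nintedanib 4, 0.020 without combination 3 and 0.044 without combination 4, and 0.24 without either nintedanib 2 or combination 1. Limma called 0 of 39 genes (0% of all genes), edgeR 0 and DESeq2 0, and at an unadjusted p under 0.05 0 were higher (4.03% of all genes) and 0 lower (5.24%). The smallest p were those of PLOD1 at 0.45 (SE 0.22, limma adjusted p = 0.552), ADM at 0.64 (SE 0.33, limma adjusted p = 0.575), FUT11 at 0.44 (SE 0.24, limma adjusted p = 0.609) and HIF1A at -0.41 (SE 0.23, limma adjusted p = 0.622). FUT11 was at 0.29 without nintedanib 4 or without combination 3. Groups did not overlap for CA12 and PLOD1, both higher in the combination, against 1.84% of all genes, and for 0 lower (1.66%).

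The libraries of each group were spread over a wide range. The median of the 39 genes, as a log2 difference from the vehicle mean, was 0.23, 0.36, 0.94 and 0.82 in combination 1 to 4, and 0.63, 0.75, 0.44 and -0.04 in nintedanib 1 to 4. It was 0.06, -0.38, 0.43 and -0.41 in alpelisib 1 to 4, and -0.15, -0.68, 0.38 and 0.38 in vehicle 1 to 4. The pooled SD within groups was 0.393, taken from library medians measured from each gene's mean over all 16 libraries instead of the vehicle mean. Most of the 39 genes shared these positions, since alpelisib 3 was the highest of its 4 libraries for 31 genes, nintedanib 4 the lowest of its 4 for 28 and vehicle 2 the lowest of its 4 for 27. Nintedanib 4 also had the most skeletal muscle transcript (3.46% of mouse reads) and the fewest human reads. The part of these in its position was not tested. Without nintedanib 4 and combination 1 the median of nintedanib averaged over alpelisib was 0.77.

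Combination 2 did not follow a single position. P4HA1, PLOD2, HIF1A and RORA were at their lowest of the 4 combination libraries there, and LOXL2, PLOD1, NDRG1 and CA12 were among the highest 2 of the combination group. These examples were chosen after their values were seen.

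**Figure D4:**
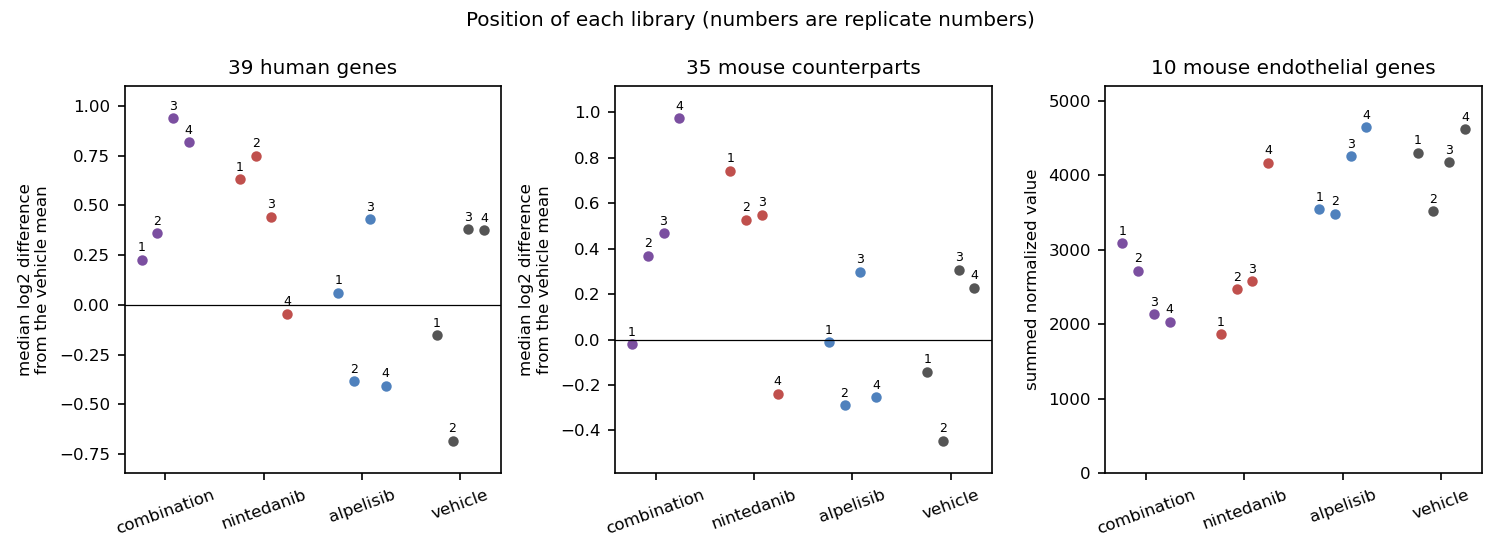
The left and middle plots show, for each library, the median log2 difference from the vehicle mean over the 39 human genes and over their 35 mouse counterparts; the right plot shows the summed value of 10 mouse endothelial genes. Human medians run from -0.68 in vehicle 2 to 0.94 in combination 3, and the endothelial sum is lowest in nintedanib 1 at 1868 and highest in alpelisib 4 at 4643.

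Other genes of the HIF pathway, in 3 lists that do not overlap with the 39, were read in the same fit, and 0 genes of these lists were called by limma in any of the 8 comparisons. The machinery list holds partners and regulators of HIF alpha (16 genes, 15 tested, since EGLN2 was listed at 0 in every library). Averaged over alpelisib its median nintedanib difference was 0.016, with 8 of 15 above 0 (54.2% of all genes). CITED2, a target of HIF that competes with it for coactivators, differed by 0.46 (SE 0.17, limma adjusted p = 0.238), CUL2, the scaffold of the VHL ligase, by 0.61 (SE 0.23, limma adjusted p = 0.254) and SIAH1, a ligase for the prolyl hydroxylases, by 0.32 (SE 0.16, limma adjusted p = 0.37). Against vehicle the combination differed by 0.70 (SE 0.24, limma adjusted p = 0.511) for CITED2, 0.66 (SE 0.33, limma adjusted p = 0.631) for CUL2 and -0.34 (SE 0.19, limma adjusted p = 0.671) for HIF1AN, the asparaginyl hydroxylase that limits HIF activity. CUL2 was at 0.28 in that comparison without vehicle 1. HIF1AN was at -0.16 without combination 4 and -0.18 without vehicle 1.

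The list of 16 glycolytic HIF targets covers glucose uptake and the steps from glucose to lactate. Its median was 0.010 for nintedanib minus vehicle, with 9 of 16 above 0 (51.7% of all genes) and 0 higher at an unadjusted p under 0.05 (6.88%). It was 0.17 for combination minus vehicle, with 16 of 16 above 0 (53.5% of all genes). In that comparison 2 were higher at an unadjusted p under 0.05 (4.47%). For nintedanib averaged over alpelisib the median was 0.15, with 15 of 16 above 0 (54.2% of all genes). At an unadjusted p under 0.05, ENO2, PGK1 and HK2 were higher in this average (7.2% of all genes). ENO2, a glycolytic enolase, differed by 0.91 (SE 0.32, limma adjusted p = 0.229) in that average and by 1.05 (SE 0.46, limma adjusted p = 0.603) for combination minus vehicle, PGK1 by 0.44 (SE 0.14, limma adjusted p = 0.21) and 0.53 (SE 0.20, limma adjusted p = 0.55), and HK2, a hexokinase, by 0.50 (SE 0.24, limma adjusted p = 0.351) and 0.48 (SE 0.34, limma adjusted p = 0.736). Without vehicle 2, combination minus vehicle was 0.45 for ENO2, 0.33 for PGK1 and 0.13 for HK2, and the average for HK2 was 0.32. Without vehicle 3, combination minus vehicle was 0.78 for HK2. SLC2A1, the main glucose transporter of carcinoma cells, differed by 0.18 (SE 0.21, limma adjusted p = 0.729) in the average, which was 0.028 without vehicle 2, 0.079 without alpelisib 4, 0.12 without nintedanib 1 and 0.30 without alpelisib 3. SLC2A1 stood at 12630, 18205, 17909 and 15731 in combination 1 to 4 and at 17252, 13416, 12703 and 11073 in nintedanib 1 to 4. It stood at 15004, 10564, 21743 and 8731 in alpelisib 1 to 4 and at 11972, 6800, 18403 and 17433 in vehicle 1 to 4. All groups overlapped for SLC2A1.

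Of 29 other HIF targets tested, 29 were above 0 with nintedanib averaged over alpelisib (54.2% of all genes), with a median of 0.36 and 13 at an unadjusted p under 0.05 (44.8%, against 7.2% of all genes). VEGFA is the ligand of the vessel receptors that nintedanib blocks. VEGFA stood at 1161, 1240, 2264 and 1546 in combination 1 to 4 and at 1029, 1377, 1320 and 804 in nintedanib 1 to 4. It stood at 988, 626, 1058 and 614 in alpelisib 1 to 4 and at 723, 868, 1046 and 1127 in vehicle 1 to 4. Every combination library exceeded every alpelisib and every vehicle library, and nintedanib overlapped with vehicle. VEGFA differed by 0.58 (SE 0.16, limma adjusted p = 0.177) in the average and by 0.69 (SE 0.23, limma adjusted p = 0.508) for combination minus vehicle. IGFBP3, a binder of insulin-like growth factors, differed by 0.80 (SE 0.19, limma adjusted p = 0.153) in the average and 1.06 (SE 0.27, limma adjusted p = 0.421) for combination minus vehicle. Of this list, the alternative fits were read only for VEGFA, IGFBP3, GBE1 and PPFIA4. DESeq2 called IGFBP3 and GBE1 in the average (among 153 genes of 14568) and PPFIA4 for combination minus vehicle (among 13 genes of 12517). Limma called IGFBP3 in the average without nintedanib 4 and combination 1 (among 74 genes of 17259). GBE1, the glycogen branching enzyme, differed by 0.73 (SE 0.20, limma adjusted p = 0.177) in the average, and PPFIA4, a liprin, by 1.59 (SE 0.41, limma adjusted p = 0.421) for combination minus vehicle.

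**Figure D5:**
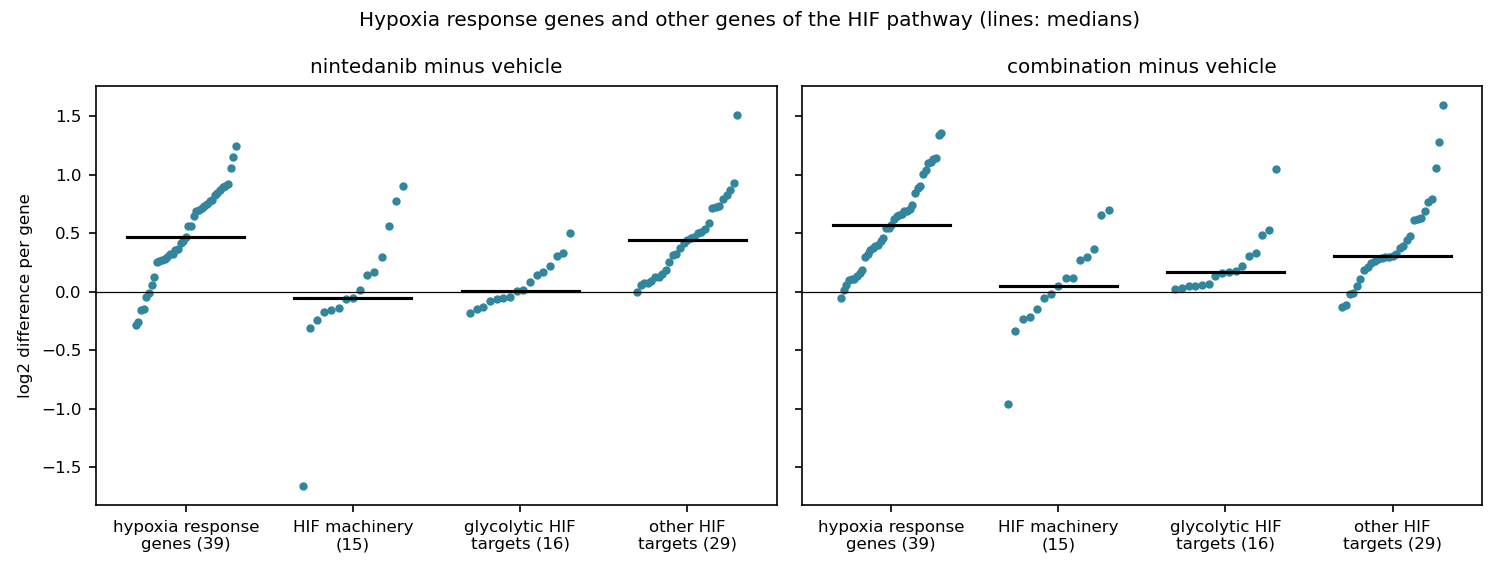
Each point is the log2 difference of 1 gene, for nintedanib minus vehicle on the left and combination minus vehicle on the right, in 4 lists with a line at the median. The medians of the 39 genes are 0.47 and 0.57, those of the glycolytic targets 0.010 and 0.17.

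In the host, 36 of the 39 genes have a mouse counterpart of the same symbol in the mouse table, and 35 were tested. None was called by limma in any comparison (0.0972% of mouse genes were called for nintedanib averaged over alpelisib, 0.0515% for combination minus vehicle and 0% in the others). In that average 32 of 35 were above 0, against 52.5% of mouse genes, with a median of 0.47. At an unadjusted p under 0.05, 12 of 35 were higher (34.3%, against 4.4% of mouse genes), among them Pdk1 at 0.82 (SE 0.21, limma adjusted p = 0.178) and Vldlr at 0.77 (SE 0.23, limma adjusted p = 0.226). Nintedanib minus vehicle had a median of 0.40, with 28 of 35 above 0 (52% of mouse genes). Combination minus alpelisib had a median of 0.58 with 33 of 35 above 0 (51.4%), and alpelisib minus vehicle -0.11 with 10 of 35 (51.5%). For 22 of these 36 the mouse mean was over 0.2 of the human mean, and the share of mouse reads ran from 0.228% for RAB20 to 79.1% for LOXL2. CA9, CA12 and ZNF395 had no counterpart under the same symbol. Counterparts under other names were not searched for, so the host level of these genes was not assessed. With those 22 left out and these unassessed genes kept, the median of nintedanib averaged over alpelisib over the human genes was 0.63. How reads that match both genomes were treated is not given in the sources used here.

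The vessels of the host were read from 10 mouse endothelial genes, which summed to 3089, 2716, 2130 and 2033 in combination 1 to 4, 1868, 2466, 2574 and 4170 in nintedanib 1 to 4, 3549, 3482, 4257 and 4643 in alpelisib 1 to 4 and 4303, 3521, 4176 and 4623 in vehicle 1 to 4. All combination libraries and 3 of 4 nintedanib libraries lay below every alpelisib and vehicle library, and nintedanib 4 was the exception. With nintedanib averaged over alpelisib 10 of 10 were below 0 (52.5% of mouse genes were above 0), with a median of -0.73. By limma 2 of the 10 passed the test and were lower, where 0.0972% of mouse genes passed in either direction, namely Esam at -0.82 (SE 0.15, limma adjusted p = 0.0343) and Cdh5 at -0.91 (SE 0.18, limma adjusted p = 0.0479). The 6 pericyte genes summed to 1207 to 1506 in combination, 1080 to 1610 in nintedanib, 1307 to 1627 in alpelisib and 1495 to 2054 in vehicle libraries. The part of vessels, or of host RNA, in the human values was not tested.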

How the data were processed

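RNA of whole tumours was sequenced with a 3′ mRNA kit in 16 libraries, 4 in each of 4 groups. The authors mapped the reads to each of the 2 genomes on its own, per the labels and the design text, and the submitters' processing notes name TopHat, hg19 and mm10. For the counting tool, the annotation and the scaling, the record is silent: not given in the sources used here. The values are a normalized signal, as deposited by the authors: in each library 100% of the human and of the mouse values were whole multiples of 1 step (within 0.01), so that reads could be recovered. Human reads per library ran from 8303617 to 18568119, and this depth limits the precision of low genes such as SLC2A3.

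Human genes were kept where 4 or more libraries had a value of 1 or more, and these 17663 were fitted with limma 3.58.1 (R 4.3.3) on log2(value + 1), which understates the differences of low genes. The model had 1 mean per group over all 16 libraries, with a mean-variance trend and Benjamini-Hochberg adjustment over all genes and a threshold of 0.05. The mouse table was fitted apart in the same way (17484 genes). Each comparison was a contrast of this model; the averages take nintedanib over both levels of alpelisib, or alpelisib over both levels of nintedanib. The values are not counts, so edgeR 4.0.16 and DESeq2 1.42.0 on the recovered reads were alternatives, beside other scalings, filters and pseudocounts, a replicate block, fits of the compared groups alone, and fits without each library in turn. The fits were tested on simulated data.

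The 39 genes, the other lists and the tests were chosen with earlier results of these data known. Genes named with values from every library are 8 fixed by role and the 4 with the smallest p in each comparison; SLC2A3 and the grouping by role were added after values were seen. Symbols of 37 of the 39 matched the RefSeq gene table and 2 (ERO1L and FUT11) matched by an older symbol. Replicate numbers did not pair libraries, since 2 of 24 same-numbered pairs had a correlation over 0.1. No 2 replicates agreed within sampling noise, the smallest chi-square per degree of freedom being 23.8.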

Additional observations from a re-analysis of the deposited data

Results flagged for a closer look

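In 10 of 160 sets of 4 libraries (39 genes and the library position, in 4 groups) 1 library lay far from the other 3 of its group, by a test that by chance marks about 1 in 20 sets. Alpelisib 3 was high for ANGPTL4 at 2297, for P4HA1 at 730, for P4HA2 at 919 and for SLC2A3 at 77.1. Combination 3 was high for BNIP3 at 8338. Nintedanib 2 was high for VLDLR at 147, nintedanib 3 was low for KDM4B at 737, and nintedanib 4 was low for RAB20 at 84.1. Vehicle 4 was high for ANKRD37 at 314, and vehicle 2 was low for KDM4B at 400.0.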

How the results depend on the processing

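By limma, 0 of the 39 genes were called in any of the 8 comparisons with any 1 library left out (range 0 to 0). DESeq2 called 1 (nintedanib minus vehicle), 1 (combination minus vehicle), 2 (combination minus alpelisib) and 6 (nintedanib averaged over alpelisib), and without nintedanib 4 and combination 1 limma called 1 in that average. Medians with 1 library left out ran from 0.31 to 0.65 for nintedanib minus vehicle, -0.36 to 0.044 for alpelisib minus vehicle, 0.33 to 0.75 for combination minus vehicle, 0.0011 to 0.24 for combination minus nintedanib, 0.50 to 0.79 for combination minus alpelisib, 0.090 to 0.50 for the departure from additive effects, 0.56 to 0.73 for nintedanib averaged over alpelisib and -0.10 to 0.079 for alpelisib averaged over nintedanib. Counts higher at an unadjusted p under 0.05 ran from 7 to 19, 0 to 0, 6 to 22, 0 to 2, 12 to 28, 0 to 9, 23 to 30 and 0 to 0 in that order. Such counts were 9 (scaled to the human plus mouse total) and 9 (no trend) for combination minus vehicle, and 13 (no trend) for combination minus alpelisib. For combination minus nintedanib they were 2 (quantile normalization), 1 (human plus mouse total) and 2 (only the groups compared), and for the departure from additive effects 0 without the 2 muscle-rich libraries; the cause was not tested.

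With nintedanib averaged over alpelisib, EPAS1 was at -0.033 scaled to the human plus mouse total, -0.000445 in edgeR and -0.018 to 0.045 with 1 library left out; CA12 was at -0.00966, -0.00689 and -0.067 to 0.10. Of 609 values of named genes under the alternatives that keep every group at 4 libraries or leave out the muscle-rich ones, 592 kept their direction and their side of the threshold, 4 turned and 13 passed the threshold. The replicate block, with numbers that do not pair the libraries (6 of 16 were closest to a library of their own number), gave 1 gene higher at an unadjusted p under 0.05 for combination minus nintedanib and left the other counts within 1.5 times. With 4 libraries a group and a median standard error of 0.30, small differences cannot be seen.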
